A study of Mus musculus with 6 samples.

Results

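Histone genes encode the proteins that DNA is wound around, and they were examined here as 67 of the 23410 probe sets that carry a gene symbol on a whole-transcript array. A probe set was taken when any of its symbols began as those of the linker histones (H1f), the clustered core histones (H2ac, H2bc, H3c, H4c and the older Hist names), or the variants H2ax, H2az and H3f3. Of these probe sets, 35 name 1 gene and 32 name several. Together they name 71 histone genes, out of 21335 genes named on the array, of which 34 have a probe set of their own and 37 are read only by probe sets shared with other genes.

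The cells were mouse pre-B acute lymphoblastic leukaemia cells of the C57Bl/6 strain, transformed with the fusion kinase BCR-ABL1. Every array carried the Bcor fl/Y genotype, a floxed allele of the X-linked corepressor gene Bcor with no other copy. The 3 control arrays came from cells transduced with PMIP-ERT2 and the other 3 from cells transduced with Cre-ERT2, a fusion that lets tamoxifen switch on the recombinase. Both groups were given 4OH-tamoxifen at 0.5 micromolar for 2 days, and RNA was taken from puromycin-resistant cells, so Cre-ERT2 was compared with ERT2 under the same drug. No label states whether a group's arrays stem from separate cultures, clones or animals. The p-values therefore cover the variation among these 6 samples alone, and part or all of it may be technical.

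Replication-dependent histone genes lie in clusters, have no introns and are transcribed in S phase, when new DNA needs packaging. Their transcripts end in a stem-loop bound by the protein SLBP instead of a poly(A) tail. Replacement variants such as H3f3a, H3f3b, H2az1 and H2az2 are made throughout the cell cycle from ordinary polyadenylated transcripts. A few clustered genes can also give polyadenylated transcripts that run past the stem-loop, which are known from cells that leave the cycle. Within each clustered core family most protein products are nearly the same, and so are many of the coding sequences that probes read.

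The upstream sequence of many clustered genes carries short elements, which differ between families. It is shown for 3 H2B genes that have a probe set of their own and hold both the CCAAT box and the octamer ATTTGCAT. H3f3a is shown as a replacement variant. Each line gives the 250 bases before the RefSeq start in GRCm38.p6, with CCAAT and TATAAA in capitals wherever found on either strand (the first reads ATTGG on the other), and likewise the octamer.
H2bc14, chr13:21721794-21722043, plus strand: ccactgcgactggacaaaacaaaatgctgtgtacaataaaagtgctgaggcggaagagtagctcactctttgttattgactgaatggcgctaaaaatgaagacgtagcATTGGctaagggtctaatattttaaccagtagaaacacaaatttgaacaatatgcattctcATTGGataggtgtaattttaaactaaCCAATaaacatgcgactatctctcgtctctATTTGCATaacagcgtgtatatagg
H2bc3, chr13:23746484-23746733, plus strand: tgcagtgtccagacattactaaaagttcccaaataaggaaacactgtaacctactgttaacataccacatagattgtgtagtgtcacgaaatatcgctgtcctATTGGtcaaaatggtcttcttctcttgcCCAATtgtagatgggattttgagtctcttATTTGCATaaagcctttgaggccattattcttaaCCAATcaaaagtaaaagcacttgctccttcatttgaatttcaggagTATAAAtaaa
H2bc18, chr3:96269450-96269699, plus strand: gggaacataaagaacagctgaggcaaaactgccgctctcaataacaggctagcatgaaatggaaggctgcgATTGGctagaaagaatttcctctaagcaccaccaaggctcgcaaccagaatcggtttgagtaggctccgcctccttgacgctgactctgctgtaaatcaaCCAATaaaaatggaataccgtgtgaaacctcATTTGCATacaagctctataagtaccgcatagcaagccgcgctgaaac
H3f3a, chr1:180813606-180813855, minus strand: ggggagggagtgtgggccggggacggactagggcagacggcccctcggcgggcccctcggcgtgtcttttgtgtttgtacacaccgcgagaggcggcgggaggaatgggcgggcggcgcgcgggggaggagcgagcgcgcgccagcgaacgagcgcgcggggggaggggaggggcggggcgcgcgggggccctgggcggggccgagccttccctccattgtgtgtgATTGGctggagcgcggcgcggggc
The octamer, the element read by POU factors such as OCT1, lies 25 bases before the start of H2bc14, 90 before that of H2bc3 and 48 before that of H2bc18. H2bc3 also has TATAAA 10 bases before its start, and H3f3a has a single reverse CCAAT 24 bases before its own.

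RefSeq windows of 300 bases, 250 before to 50 after the start, were found for 65 of the 71 histone genes (66 windows) and were searched on both strands. The genes with no window were H2ax, H2bc21, H2bc4, H3c1, H3c7 and H4c14. CCAAT was in 84.8% of histone windows against 37.4% of all 32851 windows, and TATAAA was in 53.0% against 13.6%. By family, CCAAT was in 100% of the H2A, H2B, H3 and replacement variant windows and in 77.8% of the H1 windows. In H4 it was in 3 of 11 windows (27.3%), below the share of all windows. ATTTGCAT was in 21.2% against 1.74%, with 6 of the 17 H2A windows and 7 of the 15 H2B windows holding it. It was in 0 of the H1, H3 and H4 windows. The E2F-type word TTTCGCGC was in 13.6% against 0.323%, in H2A and H2B windows only, and TTTGGCGC was in 0 histone windows against 0.514% of all. In the printed sequences no match overlaps another. A match is a description of the sequence and not of a bound factor.

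The labels were first checked on the targeted gene. Bcor read 10.07, 10.11 and 10.17 on the ERT2 arrays and 9.08, 9.22 and 9.18 on the Cre-ERT2 arrays (log2 values), so that it fell by 0.96 (SE 0.0490) to 51.5% of the ERT2 signal (limma adjusted p = 4.43e-05). Over all annotated probe sets, limma with Benjamini-Hochberg adjustment called 1514 (6.47%) at an adjusted p under 0.05, 922 higher and 592 lower, and the median log2 difference was -0.03. Array medians ran from 8.87 to 8.90. Of 12 pre-B markers fixed by name, 11 were measured, with means from 8.24 (Dntt) to 14.23 (Igll1, a surrogate light chain gene). Of these, 3 fell and 1 rose: the recombinase genes Rag1 and Rag2 fell by 0.38 and by 0.71, the receptor gene Il7r fell by 0.60, and Dntt, the terminal transferase gene, rose by 0.86. Markers of other cells had means of 7.33 to 8.53 for 5 of 6 T cell genes, 7.96 to 8.51 for 3 of 6 erythroid genes and 7.06 to 9.99 for 6 myeloid genes. Lyz2, the lysozyme gene of myeloid cells, was called higher by 0.45. The part of these marker changes in the results below was not tested. In bulk samples fewer cells of a type and less RNA per cell cannot be told apart.

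Among the histone probe sets, 2 rose in Cre-ERT2 cells and 0 fell, which is 2.99% against 6.47% of all annotated probe sets (3.94% higher and 2.53% lower). Both were H2B genes read by a probe set of their own, H2bc4 and H2bc21. Over all 23410 annotated probe sets the median log2 difference was -0.03, with 7945 above 0 and 15465 below. For the 67 histone probe sets it was 0.02, with 42 above 0 and 25 below. The 35 that name 1 gene had a median of -0.0040, with 15 above 0 and 20 below. The 32 that name several had a median of 0.02, with 27 above 0 and 5 below. Many of these shared sets list the same genes, so their counts are not independent. In 14 of the 67 probe sets every Cre-ERT2 array lay above every ERT2 array, and in 9 every one lay below. Together these are 34.3%, against 29.2% of all probe sets (9.79% higher and 19.4% lower). Of the 14, 6 are shared sets that name H3f3a or H3f3b. At an unadjusted p under 0.05 the count was 12 of 67, beside 22.1% of all probe sets.

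**Figure D1:**
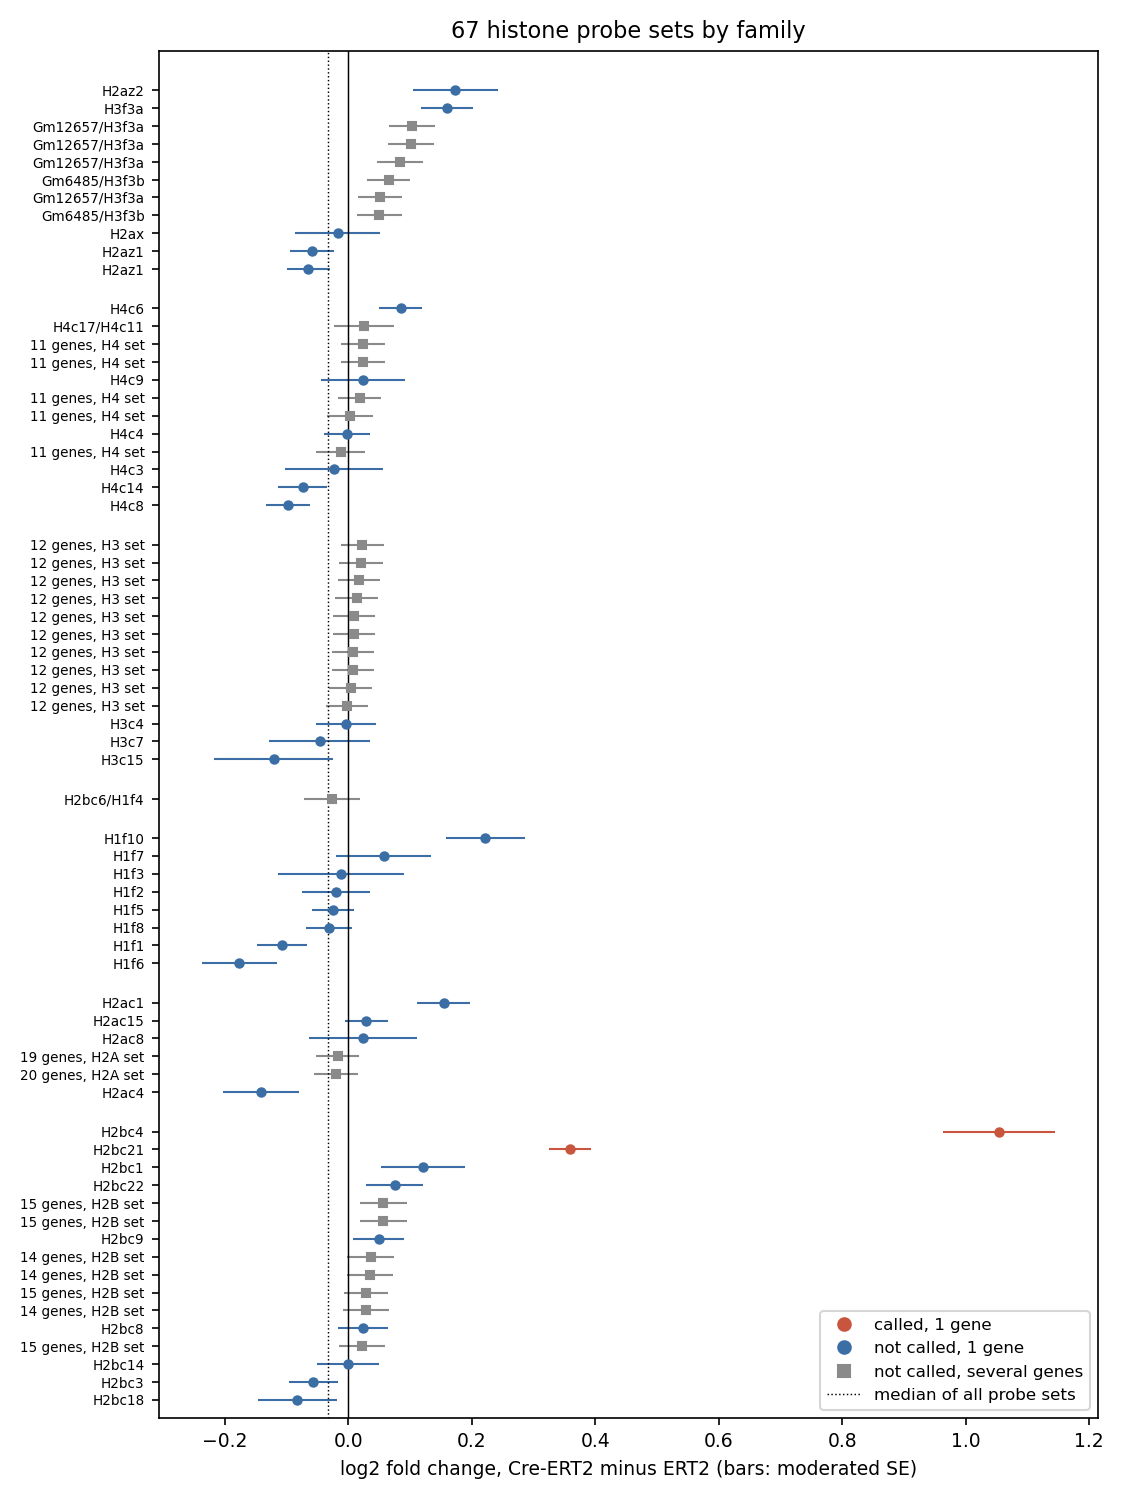
Log2 difference, Cre-ERT2 minus ERT2 (horizontal axis), of each of the 67 histone probe sets, grouped by family, with the moderated standard error as a bar and the median of all annotated probe sets as a dotted line. H2bc4 at 1.05 and H2bc21 at 0.36 (red) are called, and the other 65 lie between -0.18 and 0.22.

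The H2B family held the only called members, 2 of its 16 probe sets (12.5%, beside 6.47% of all probe sets). H2bc4, a gene of the large cluster on chromosome 13, read 9.57, 9.38 and 9.53 on the ERT2 arrays and 10.63, 10.67 and 10.34 on the Cre-ERT2 arrays. The groups were far apart, and Cre-ERT2 replicate 3 was the lowest of its group. The means were 9.49 ± 0.0985 and 10.55 ± 0.183 (SD, n = 3 each), a rise of 1.05 on the log2 scale (SE 0.0907, 95% interval 0.85 to 1.26), or 2.08-fold (limma adjusted p = 0.000446). With each array left out in turn, and under every other setting tried, it stayed called, with adjusted p from 4.59e-05 to 0.00767 and a log2 rise of 0.99 to 1.16.

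H2bc21, an H2B gene of the smaller cluster on chromosome 3, read 8.84, 8.84 and 8.86 on the ERT2 arrays and 9.20, 9.20 and 9.21 on the Cre-ERT2 arrays. The arrays of each group lay close together, and the groups did not overlap. The means were 8.85 ± 0.0121 and 9.21 ± 0.00371 (SD, n = 3 each), a rise of 0.36 (SE 0.0338, 95% interval 0.28 to 0.44), or 1.28-fold (limma adjusted p = 0.00066). The SE is wider than these SDs because limma moves each probe set's variance towards that of all probe sets.

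The other 7 H2B genes with a probe set of their own were not called, and their log2 differences ran from -0.08 to 0.12 with a median of 0.02. H2bc14, whose upstream sequence is printed above, read 13.49, 13.53 and 13.61 on the ERT2 arrays and 13.51, 13.50 and 13.62 on the Cre-ERT2 arrays. The groups overlapped fully, and the difference of -0.0005 had a 95% interval of -0.12 to 0.11. H2bc3 read 12.86, 12.87 and 12.95 against 12.84, 12.86 and 12.82, a difference of -0.06 (SE 0.0400, adjusted p = 0.444 with limma). H2bc18 read 12.19, 12.24 and 12.44 against 12.20, 12.21 and 12.21, and its difference of -0.08 (SE 0.0637) came with a high ERT2 replicate 3. Of the rest, H2bc1 differed by 0.12, H2bc22 by 0.08, H2bc9 by 0.05 and H2bc8 by 0.02.

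**Figure D2:**
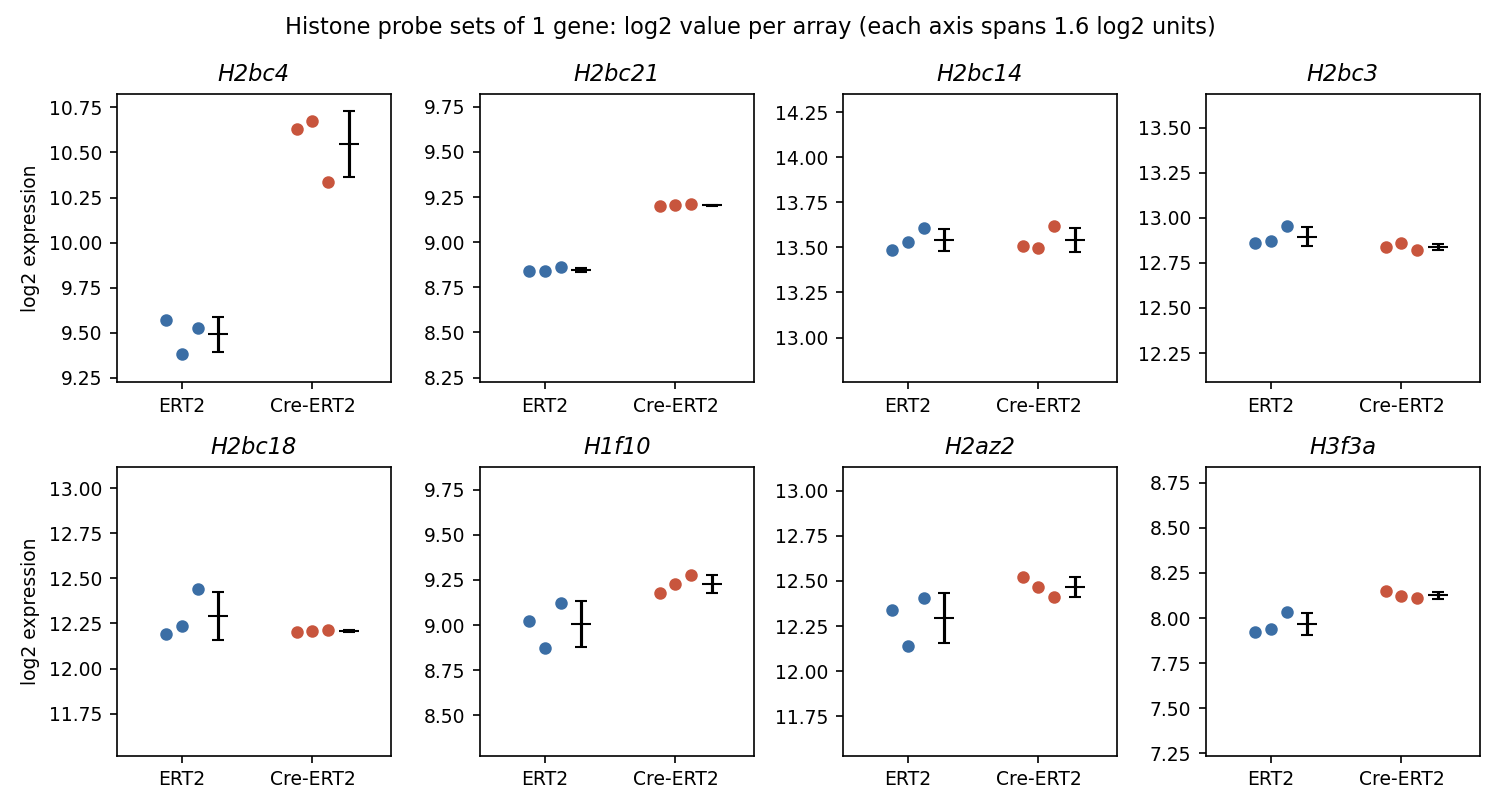
Log2 expression on each of the 6 arrays (points) for 8 histone genes read by a probe set of their own, with the group mean and SD (bars) beside them. Each vertical axis spans the same length, so the distances between groups can be compared but the levels of different genes cannot, and H2bc4 and H2bc21 are the only called genes shown.

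H2bc4 is also one of the genes named by 7 shared H2B probe sets, which list 14 or 15 genes each. All 7 lists hold H2bc genes and H4bc24, whose older symbol in the gene table, Hist1h2br, is that of an H2B gene. None of the 7 was called and their groups overlapped in every one, beside 6.47% of all probe sets called and 29.2% apart. Their log2 differences lay between 0.02 and 0.06. A set of 15 genes, with a mean of 14.16, read 14.14, 14.14 and 14.17 on the ERT2 arrays and 14.14, 14.16 and 14.21 on the Cre-ERT2 arrays. A set of 14 genes had means of 14.03 ± 0.0374 and 14.07 ± 0.0183 (SD), a difference of 0.04 (SE 0.0375). Their means, from 13.76 to 14.16, lie near the top of the deposited scale, whose highest value is 14.64. How much of such a signal comes from any 1 of the genes cannot be read from these values. A further shared set, which names the H2B gene H2bc6 and the linker gene H1f4, differed by -0.03.

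The H2A family, whose proteins pair with H2B, had 6 probe sets and 0 calls, beside 6.47% of all probe sets called. H2ac1, a gene best known from the testis, read 10.93, 11.00 and 11.03 on the ERT2 arrays and 11.16, 11.18 and 11.09 on the Cre-ERT2 arrays. Its groups did not overlap, and its difference of 0.15 (SE 0.0426) missed the threshold (limma adjusted p = 0.0766). H2ac4 read 11.77, 11.69 and 11.92 against 11.60, 11.68 and 11.67, apart in the other direction, with a difference of -0.14 (SE 0.0616, limma adjusted p = 0.227). H2ac15 differed by 0.03 and H2ac8 by 0.02. The shared sets of 19 and 20 genes hold mostly H2A genes, but both also list the H3 gene H3c4, the variant gene H2ax and the pseudogene H2af-ps2. Both differed by -0.02, with means of 14.04 and 14.29.

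Linker histones bind where DNA enters and leaves the nucleosome. They had 8 probe sets, all of 1 gene, and 0 calls, beside 6.47% of all probe sets called. Their median log2 difference was -0.02. H1f10, a replication-independent linker histone outside the clusters, read 9.02, 8.87 and 9.12 on the ERT2 arrays and 9.18, 9.23 and 9.28 on the Cre-ERT2 arrays. Every Cre-ERT2 array lay above the ERT2 arrays, and the difference of 0.22 (SE 0.0641, 95% interval 0.07 to 0.37) was not called (limma adjusted p = 0.0885, and 0.0467 without ERT2 replicate 3). H1f6, the testis linker histone, read 8.11, 8.06 and 8.25 against 7.87, 8.01 and 8.01, a difference of -0.18 (SE 0.0607, limma adjusted p = 0.140). H1f1 read 12.97, 12.94 and 13.04 against 12.85, 12.88 and 12.90, a difference of -0.11 (SE 0.0405, limma adjusted p = 0.170). Both had every Cre-ERT2 array below the ERT2 arrays. So did H1f5, a main linker histone of dividing cells, at 13.54, 13.55 and 13.55 against 13.53, 13.52 and 13.51, though its difference was -0.02. H1f2, another somatic linker histone, differed by -0.02 with overlapping groups.

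For H3, 13 probe sets gave 0 calls, and in all 13 the groups overlapped. Over all probe sets 6.47% were called and 29.2% were apart. Of the 13 H3 probe sets, 10 list the same 12 H3 genes and are not independent. Their means lay between 14.35 and 14.50, again close to the top of the scale. A set with a mean of 14.50 read 14.51, 14.49 and 14.48 on the ERT2 arrays and 14.50, 14.50 and 14.51 on the Cre-ERT2 arrays. The log2 differences of the 10 ran from -0.0022 to 0.02, with a median residual SD of 0.0115 beside 0.0589 over all probe sets. The 3 H3 genes with a probe set of their own were H3c15, H3c7 and H3c4. H3c15 read 10.80, 10.62 and 10.88 against 10.68, 10.80 and 10.45, a difference of -0.12 (SE 0.0964) within a wide spread. H3c7 differed by -0.05 and H3c4 by -0.0040.

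H4, the partner of H3, had 12 probe sets and 0 calls, beside 6.47% of all probe sets called. H4c4 read 14.42, 14.39 and 14.46 on the ERT2 arrays and 14.43, 14.43 and 14.40 on the Cre-ERT2 arrays, a difference of -0.0022 (SE 0.0371). H4c6 read 12.97, 13.01 and 12.98 against 13.08, 13.07 and 13.06, apart and higher by 0.09 without passing the threshold (SE 0.0348, limma adjusted p = 0.201). H4c8 read 9.60, 9.63 and 9.62 against 9.51, 9.50 and 9.55, apart in the other direction, with a difference of -0.10 (SE 0.0362, limma adjusted p = 0.166). H4c14 was also apart and below, at -0.07. The 6 shared H4 probe sets, 5 of them naming 11 genes, overlapped in every case and differed by -0.01 to 0.03.

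**Figure D3:**
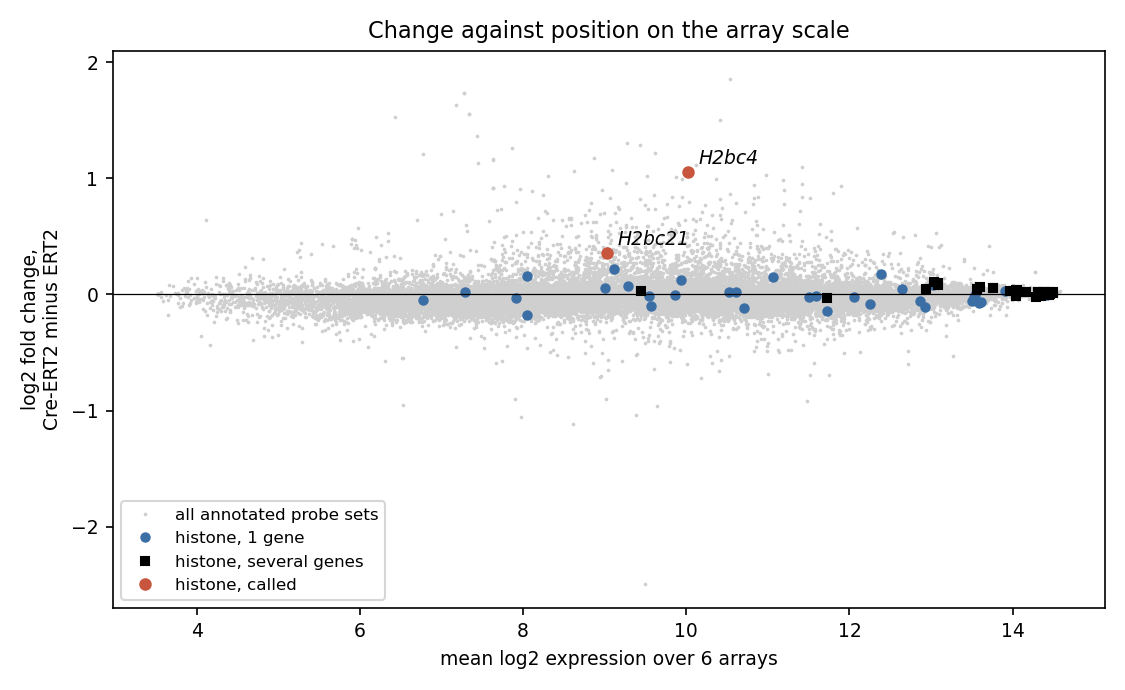
Log2 difference, Cre-ERT2 minus ERT2 (vertical axis), against the mean log2 expression over the 6 arrays (horizontal axis) for all 23410 annotated probe sets (grey) and the histone probe sets of 1 gene (blue), of several genes (black squares) and called (red). Most shared probe sets sit at the right edge of the scale, where differences are small, while H2bc4 and H2bc21 sit in its middle.

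The replacement variants are the histones a cell can deposit outside S phase. Their 11 probe sets had 0 calls, beside 6.47% of all probe sets called. In 10 of the 11 the groups did not overlap, 8 with Cre-ERT2 above and 2 below. Over all probe sets 29.2% were apart, 9.79% above and 19.4% below. The 11 are not independent, since several read the same gene. The 8 above name H3f3a (5 sets), H3f3b (2 sets) or H2az2, and the 2 below both read H2az1. H3f3a, which encodes the replacement H3, has a probe set of its own that read 7.92, 7.94 and 8.03 on the ERT2 arrays and 8.15, 8.12 and 8.11 on the Cre-ERT2 arrays. Its mean of 8.05 lay below the array medians, which ran from 8.87 to 8.90, so the signal was dim. Its difference of 0.16 (SE 0.0420, 95% interval 0.06 to 0.26) missed the threshold (limma adjusted p = 0.0650, and 0.0386 without ERT2 replicate 3). Another 4 probe sets name H3f3a together with Gm12657, with means from 12.94 to 13.09. All 4 were apart in the same direction, with differences from 0.05 to 0.10. One of them read 12.99, 12.94 and 13.02 against 13.08, 13.09 and 13.08 (adjusted p = 0.149 with limma).

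H3f3b, the second gene for the same protein, is read only together with Gm6485, by 2 probe sets. They read 13.55, 13.56 and 13.58 against 13.64, 13.60 and 13.64 in the first, and 13.52, 13.54 and 13.55 against 13.62, 13.57 and 13.57 in the second. Both were apart and higher, by 0.07 and 0.05, and neither was called.

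The H2A.Z genes went different ways without a call. H2az2 read 12.34, 12.14 and 12.40 on the ERT2 arrays and 12.52, 12.47 and 12.41 on the Cre-ERT2 arrays, a difference of 0.17 (SE 0.0689, limma adjusted p = 0.188) in which the lowest Cre-ERT2 array was just above the highest ERT2 array. The 2 probe sets of H2az1 lay the other way, apart and below, at -0.06 each. One read 13.66, 13.63 and 13.66 against 13.60, 13.57 and 13.57 (adjusted p = 0.323 with limma). H2ax, the variant that is phosphorylated at DNA breaks, read 11.51, 11.62 and 11.66 against 11.45, 11.60 and 11.69, overlapping, with a difference of -0.02.

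A call that was missed does not show that a gene kept its level. Over the 65 histone probe sets not called, the 95% intervals of the log2 difference reached down to -0.34 (H3c15) and up to 0.37 (H1f10). For the 25 shared core sets they ran from -0.10 to 0.14. Those bounds hold for the array signal, and most of the 25 read near the top of the scale. What that place does to the intervals was not tested.

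The genes beside the called ones were set out in their order on the chromosome from the GRCm38.p6 gene table. H2bc4 lies between H2ac6, an H2A gene read only by the shared H2A sets, and H1f6, whose difference was -0.18. H2bc21 lies between H2ac20, likewise read only by those sets, and H3c15, at -0.12. Neither neighbour with its own probe set was called. Of the genes with a probe set of their own, 23 are on chromosome 13, and H2bc4 was the single call among them.

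**Figure D4:**
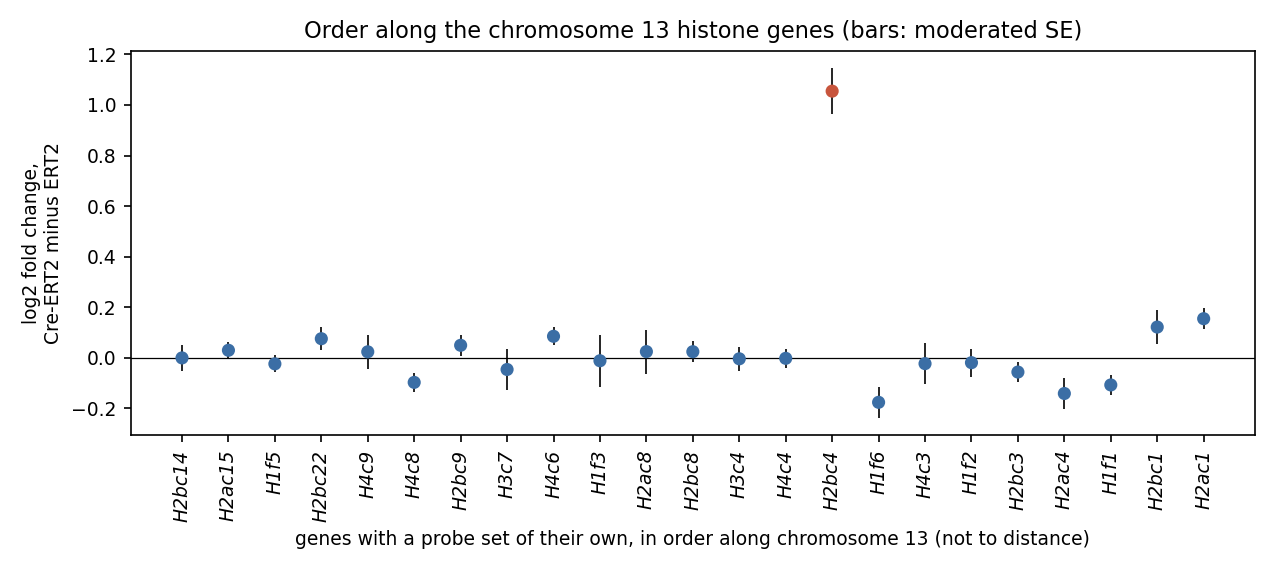
Log2 difference, Cre-ERT2 minus ERT2 (vertical axis), of the 23 chromosome 13 histone genes that have a probe set of their own, placed in chromosomal order and not by distance, with the moderated standard error as bars. H2bc4 (red) stands at 1.05 between genes that lie from -0.18 to 0.15.

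Gene spans were read from the same table. Of the 22 core histone probe sets of 1 gene, 19 read genes that span 375 to 903 bases, as an intronless histone gene does. The other 3 read H2bc21 (2667 bases), H2bc4 (8282 bases, with 2 RefSeq transcripts) and H2bc22 (14079 bases, with 2). The 2 called genes are both among these 3, while H2bc22 was not called, at 9.25, 9.22 and 9.29 against 9.33, 9.40 and 9.26. The 19 short genes had a median log2 difference of -0.0022 and a range of -0.14 to 0.15. This was noticed after the values were seen and has no test. Which part of each transcript the probes read is not given in the sources used here, and probes may also read near-identical copies.

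The genes that make and process histone transcripts were taken from a list by role. Of 28 measured, 0 rose and 3 fell (10.7% called, beside 6.47% of all probe sets, 2.53% lower), with a median log2 difference of -0.05 beside -0.03 over all probe sets. Sympk, the scaffold of the cleavage complex, read 13.06, 13.12 and 13.16 on the ERT2 arrays and 12.85, 12.85 and 12.91 on the Cre-ERT2 arrays and fell by 0.24 (SE 0.0418, limma adjusted p = 0.0130). Ccne1, the cyclin that with CDK2 activates histone transcription through NPAT, read 11.95, 11.90 and 11.93 against 11.73, 11.63 and 11.69 and fell by 0.24 (limma adjusted p = 0.0119). Cpsf2, a cleavage subunit, fell by 0.18 (limma adjusted p = 0.0353). The count was 1 without ERT2 replicate 1 or Cre-ERT2 replicate 1, 0 without Cre-ERT2 replicate 2, 5 with an intensity trend and 6 with array weights. Each of the 3 calls was lost when some array was left out. Sympk lost it without Cre-ERT2 replicate 1 or 2 (limma adjusted p = 0.0554 and 0.0651), and Ccne1 when either ERT2 replicate 1 or Cre-ERT2 replicate 2 was left out (limma adjusted p = 0.0610 and 0.0571). Cpsf2 kept its call without ERT2 replicate 2 and lost it without any other array (limma adjusted p from 0.0611 to 0.142). Slbp and Npat, named for their role and not by the rule, were not called, at -0.13 and -0.02.

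Histone chaperones carry new histones to DNA. Of 31 measured, 0 rose and 1 fell (3.23% called, beside 6.47% of all probe sets, 2.53% lower), and their median was -0.05. Asf1b, which hands H3 and H4 to the replication fork, read 13.14, 13.15 and 13.23 against 13.01, 13.01 and 13.01 and fell by 0.16 (SE 0.0393, limma adjusted p = 0.0481). That call was lost whichever of the 6 arrays was left out (limma adjusted p from 0.0784 to 0.158). Array weights gave 5 calls on this list, 4 lower and 1 higher. Of 12 histone genes outside the symbol pattern 0 were called, with a median of -0.01. Among them H2aw differed by 0.08 (limma adjusted p = 0.237) and Macroh2a1, the macroH2A gene, by 0.08 (limma adjusted p = 0.268), both with groups apart and Cre-ERT2 above.

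S-phase genes were counted because clustered histone transcripts are made in that phase. Of 47 measured, 0 rose and 6 fell (12.8% called, beside 6.47% of all probe sets, 2.53% lower). A log2 difference below 0 was seen in 46 of the 47, beside 15465 of all 23410 annotated probe sets. The median of the 47 was -0.11. The count of calls depended on the arrays and the settings. It was 0 without Cre-ERT2 replicate 1 or 2, 1 without ERT2 replicate 1 and 2 without ERT2 replicate 2 or 3. An intensity trend gave 18, of which 17 were lower and 1 higher, and array weights gave 23, all lower. The largest differences, of Lig1, Pola1 and Dscc1 at -0.22, -0.21 and -0.21, were not called. Among the called genes the largest falls were those of Chtf18, a clamp-loader subunit, and Pold1, a DNA polymerase, by 0.19 each. Next came Dut, which clears dUTP, by 0.19, and Tk1, thymidine kinase, by 0.18. For these 4 in that order limma's adjusted p was 0.0226, 0.0301, 0.0196 and 0.0277. Leaving out ERT2 replicate 3 ended all 4 calls, as did leaving out replicate 1 or replicate 2 of Cre-ERT2. In the last of these cases limma's adjusted p was 0.101 for Chtf18, 0.119 for Pold1, 0.0969 for Dut and 0.125 for Tk1. Further losses came without ERT2 replicate 1 (Pold1, Dut and Tk1), ERT2 replicate 2 (Chtf18 and Tk1) and Cre-ERT2 replicate 3 (Chtf18 and Pold1), at adjusted p from 0.0508 to 0.0968. The shared core histone sets, by contrast in value only, had a median of 0.02 and 0 calls. Their place near the top of the scale moves with this result, and its part was not tested.

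**Figure D5:**
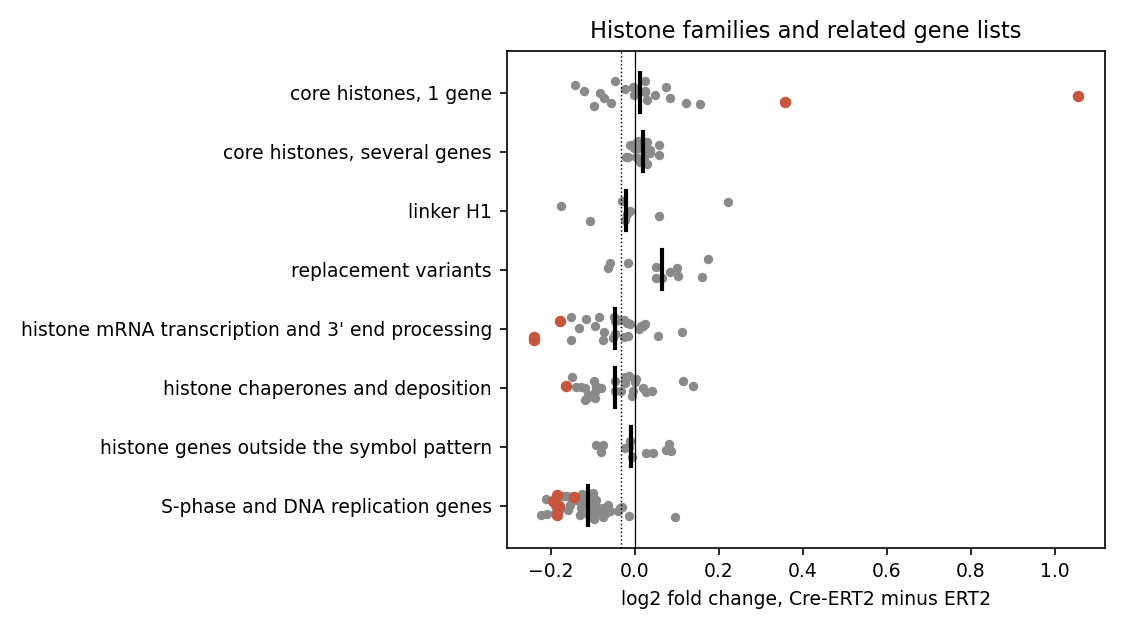
Log2 difference, Cre-ERT2 minus ERT2 (horizontal axis), of the histone probe sets by group and of the genes of 4 related lists, with each group's median as a black line, called members in red and the median of all annotated probe sets dotted. The S-phase genes lie mostly below 0 around their median of -0.11, while the core histone groups centre near 0.01 and 0.02 with H2bc4 and H2bc21 to the right.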

How the data were processed

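Values were deposited by the authors as log2 expression per probe set, and the submitters' processing notes name RMA and Partek 6.5, with no role or order. The background correction and the genome build are not given in the sources used here. Of 35556 probe sets, 21789 have 1 gene symbol and 1621 several in the platform's annotation, 6617 were treated as controls by their numbers, and 5529 had no symbol. The 23410 with a symbol entered a linear model (lmFit, then eBayes with no trend; limma 3.58.1, R 4.3.3) as Cre-ERT2 minus ERT2 over 6 arrays. Benjamini-Hochberg adjustment covered all of them, and a call is an adjusted p under 0.05. Errors are the SD over 3 arrays or limma's moderated SE, whose median was 0.0476. The number of arrays limits the precision, and no test of presence or absence was made for any probe set. Of the shared histone probe sets, 4 fall into 2 sets of identical values, leaving 65 distinct profiles. Lists were read through probe sets that name 1 gene. Where a listed gene had several, only the one of highest mean was used. This kept 28 of 32 probe sets for transcript processing and 31 of 33 for chaperones. It kept 12 of 13 for histone genes outside the pattern and 47 of 50 for S-phase genes.

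The text names Bcor, called histone probe sets, the 2 of highest mean and the 2 of largest change in each family, shared sets whose groups are apart, up to 4 called genes of each list or otherwise the 2 of smallest p, and neighbours of called histone genes. Members beyond that rule are given for completeness. The members and lists were chosen with earlier results of these data known. As alternatives the replicate number was a block, eBayes had an intensity trend, and arrays were weighted; others were 3 normalizations, filters on dim probe sets, other probe set choices and thresholds, and each array left out. The fit was checked on simulated data. Promoters came from RefSeq (GRCm38.p6). Plots used Python 3.11.15, pandas 2.3.3 and matplotlib 3.10.9.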

Additional observations from a re-analysis of the deposited data

How the results depend on the processing

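H2bc4 stayed called under every alternative, and H2bc21 under all but a required log2 change of at least 0.5, which left 1 histone call and 217 calls over all probe sets. No called result reversed its direction. More histone probe sets were called with an intensity trend (5), array weights (7), the dimmest 30% or 50% left out (4 each) and an adjusted p under 0.1 (5). The added calls were all higher and were H3f3a, H2ac1, H1f10 and sets of Gm12657 with H3f3a, and the cause was not tested. With each array left out the histone count ran from 2 to 4, the highest without ERT2 replicate 3. Over all probe sets the count was 1514 and became 3842 with array weights and 2476 at an adjusted p under 0.1, and ran from 788 to 1401 with each array left out. It fell most without ERT2 replicate 1 (848), Cre-ERT2 replicate 1 (904) and Cre-ERT2 replicate 2 (788). Array weights turned the split to 1540 higher and 2302 lower, and the cause was not tested. The median log2 difference of the histone probe sets ran from -0.0040 with single-gene probe sets only to 0.03 with cyclic loess, and Bcor kept its direction and call in every fit. With the replicate number as a block there were 848 calls over all probe sets and again 2 histone calls, with 1 S-phase call, 2 calls among the transcript processing genes and 0 among the chaperones. Deviations from the group mean correlated at 0.05, -0.10 and -0.26 between same-numbered arrays. Between differently numbered arrays the correlations ran from -0.30 to 0.32. With 3 arrays in each group these values cannot decide whether the numbers pair the samples, and no label states it.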
